A study of Mus musculus with 16 samples.

Results

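The ISG15 conjugation system was followed through 6 genes: *Isg15*, *Uba7*, *Ube2l6*, *Herc6*, *Trim25* and *Usp18*. They were chosen by name, from what their products do, with earlier results of these data known. Each was found as 1 gene among the 55416 genes of the read count table. RNA was measured by bulk sequencing in erythroblasts, the nucleated precursors of red cells, sorted from mouse foetal livers at E13.5 (E for embryonic day). The 8 embryos comprised 4 wild-type embryos (WT, numbered 0, 1, 5 and 8), 2 heterozygotes (Het, 3 and 4) and 2 homozygotes (KO, 2 and 9) for a constitutive deletion of the *Nprl3* promoter region. The deletion is carried by all cells of the embryo and leaves the α-globin enhancers, most of which lie within the *Nprl3* gene, in place. The line was backcrossed to C57BL/6J, and KO embryos die before birth. NPRL3 is a subunit of GATOR1, which restrains the growth-promoting kinase complex mTORC1 when amino acids are scarce. From each embryo cells were sorted at stage 1 (S1, early precursors low in Ter119) and stage 3 (S3, later erythroblasts positive for Ter119 and CD71), which gave 16 libraries. The study assigned the sex of each embryo from its reads: WT 1, WT 5 and KO 2 were female and the other 5 were male. Some label fields name an embryonic stem cell line, whereas titles and protocols describe sorted foetal liver cells, which were followed here.

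ISG15 is a small ubiquitin-like protein that cells make in response to type I interferon. It is joined to target proteins by a chain of enzymes that mirrors the ubiquitin chain: UBA7 activates it (E1), UBE2L6 carries it (E2) and a ligase such as HERC6 or TRIM25 hands it to the target (E3). USP18 cuts it off again and also binds the interferon receptor, where it damps signalling. Interferon-induced genes of this kind usually carry in their promoters the interferon-stimulated response element, to which IRF9 binds as part of a complex.

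The genes lie on 5 chromosomes, with positions given on mm39 as in the count table. *Isg15* occupies chr4:156283912-156285253 on the minus strand and *Uba7* occupies chr9:107852704-107861259 on the plus strand. *Ube2l6* lies at chr2:84629172-84640679 and *Trim25* at chr11:88890202-88911119, both on the plus strand. *Herc6* (chr6:57557985-57641617) and *Usp18* (chr6:121222865-121247876) share a chromosome and the plus strand. Exons of the gene model Gm45193 covered 13.7% of the exonic length of *Herc6*, Gm20661 covered 3.48% of that of *Uba7*, and the antisense model Gm44148 covered 4.44% of that of *Usp18*, so counts in those stretches are uncertain.

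RefSeq promoters (table built on GRCm38.p6, placed by an exact and unique match on GRCm39, the assembly that mm39 names) were matched for 5 of the 6 genes, all but *Usp18*. In the 250 bases before each start, both strands were searched for the core of the interferon-stimulated response element (GAAA, any 2 bases, then GAAA), for the gamma-activated sequence TTCNNNGAA, and, added after the sequences had been seen, for the shorter AANNGAAA, whose letters lie inside the first motif. Of these 5, only *Isg15* held the response element core, in 3 overlapping copies between 78 and 57 bases before its start, whereas 2.98% of all 32851 promoter windows held at least 1 copy. No window of the 5 held TTCNNNGAA, which 7.02% of all windows did. The windows of *Ube2l6*, *Herc6* and *Trim25* held none of the 3 motifs, and that of *Uba7* held AANNGAAA once, a motif found at least once in 21.3% of all windows. Since most windows of any genes lack the response element core, its absence from the other windows does not set those genes apart. Elements farther away or with other letters were not searched for. The stretches with matches are printed 5′ to 3′ on the strand of the gene, and capitals mark bases inside any match on either strand. The *Isg15* stretch covers chr4:156285306-156285425 (minus strand) and the *Uba7* stretch covers chr9:107852728-107852757 (plus strand). RefSeq starts are not always those of the gene models counted. The *Uba7* stretch lies inside its gene model, which starts at 107852704. The *Trim25* window (chr11:88889979-88890228) runs past the start of its gene model at 88890202.
Isg15 promoter: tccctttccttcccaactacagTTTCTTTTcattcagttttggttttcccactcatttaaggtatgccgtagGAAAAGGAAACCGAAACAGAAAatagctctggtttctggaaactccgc
Uba7 promoter: actcagtctagTTTCACTTttggtttcctg

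Libraries held between 20666044 and 37609502 counted reads. The label check was met at S1, where *Nprl3* had 13 and 32 reads in the KO libraries against 881 to 1588 in WT. At S3 *Nprl3* was at 107 and 111 CPM (read counts scaled to library depth by TMM) in KO against 146 to 204 in WT, a log2 difference of -0.55 (SE 0.19) that did not pass (edgeR adjusted p = 0.381). Exons of the antisense gene *Mpg* cover 17.7% of the exonic length of *Nprl3*. Spliced transcripts that start at the α-globin enhancers also carry *Nprl3* exons and are not told apart from promoter-derived mRNA in counts per gene, so that the S3 level is no check of the deletion. Erythroid markers summed to between 1808 and 9566 CPM at S1. At S3 they summed to between 170771 and 200876 CPM in WT and Het and to 153609 and 153500 CPM in KO. The S1 libraries of WT embryos 0 and 8, the male WT embryos, stood apart: 1.07% and 1.00% of their reads came from globin genes, against 0.0738% to 0.305% in the other 6. Neutrophil markers summed to 204 and 116 CPM in those libraries, 1153 and 1377 CPM in the other WT libraries and 1622 and 1700 CPM in KO at S1, while *Ly6g* had no read in any library. In bulk samples, fewer cells of a type and less RNA per cell cannot be told apart.

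The levels of the 6 genes differed widely. Scaled for gene length and library depth (TPM), *Ube2l6* led in WT at S3 with 3979 ± 174 TPM (SD, n = 4). *Uba7* followed with 82.2 ± 22.1 TPM and *Isg15* with 71.6 ± 42.1 TPM, and these overlapped between libraries. *Usp18* (9.02 ± 6.08 TPM) and *Trim25* (7.53 ± 1.03 TPM) overlapped as well, and *Herc6* was lowest, at 1.08 ± 0.203 TPM. *Ube2l6* thus stood among the most abundant transcripts of the S3 erythroblast, at ranks 14 to 20 of all genes in the 8 libraries, while at S1 it ranked between 673 and 2311.

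In KO at S3 the order changed at the second place, which *Isg15* took with 1995 ± 1009 TPM (n = 2), below *Ube2l6* with 4305 ± 388 TPM. *Isg15* ranked 32 and 66 by TPM in the KO S3 libraries, against 861 to 1993 in WT and 605 and 1113 in Het. *Uba7* (137 ± 4.25 TPM) and *Usp18* (111 ± 75.2 TPM) overlapped next. *Trim25* (16.4 ± 0.490 TPM) and *Herc6* (3.35 ± 0.0364 TPM) kept the last places.

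At S1 the order in WT was *Ube2l6* (193 ± 87.2 TPM), *Trim25* (20.7 ± 2.36 TPM), *Uba7* (10.9 ± 6.53 TPM), *Usp18* (7.32 ± 2.60 TPM), *Isg15* (4.38 ± 1.96 TPM) and *Herc6* (1.43 ± 0.498 TPM). From *Trim25* down, each gene overlapped with the next between libraries. In KO at S1 *Isg15* was at 64.7 ± 43.6 TPM, second to *Ube2l6* at 266 ± 21.2 TPM and overlapping with *Usp18* at 47.3 ± 30.1 TPM. By group means the modifier was above *Herc6* alone in WT at S1 and second among the 6 in KO at both stages.

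**Figure D1:**
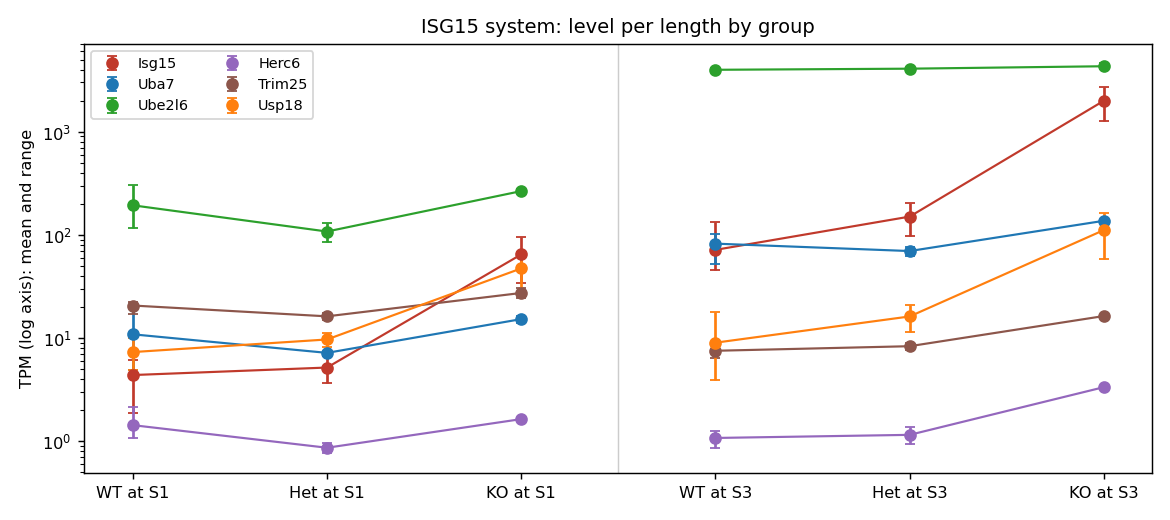
Level per length of the 6 genes by group, in TPM on a log axis, with points for the mean over embryos (WT n = 4, Het n = 2, KO n = 2) and bars for the lowest and highest library. *Ube2l6* has nearly the same level in every S3 group, with a WT mean of 3979 and a KO mean of 4305, while *Isg15* goes from 71.6 in WT to 1995 in KO.

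The genotype comparison at S3 asked which parts of the system differed between KO and WT erythroblasts. *Isg15*, *Usp18*, *Herc6* and *Trim25* rose, by between 2.02-fold and 25.9-fold, and the E1 and E2 genes did not pass the test. By the edgeR quasi-likelihood test with Benjamini-Hochberg adjustment over 11804 genes, 4 of the 6 members were called higher and none lower, against 0.457% of all genes called higher. In 5 of the 6, *Uba7* included, both KO libraries lay above all 4 WT libraries, as did those of 6.57% of all genes. The median log2 difference of the 6 genes was 1.27, and that of all genes 0.01.

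*Isg15*, the modifier itself, was at 21.04, 24.95, 62.9 and 20.5 CPM in WT embryos 0, 1, 5 and 8 at S3, and at 1126 and 487 CPM in KO embryos 2 and 9. The lowest KO library was far above the highest WT library, which was that of embryo 5. The log2 difference was 4.69 (SE 0.49), or 25.9-fold, with an edgeR adjusted p of 0.0133. Het embryo 3 had 47.1 CPM, inside the WT range, and Het embryo 4 had 88.7 CPM, above it and well below KO.

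*Usp18*, the protease that removes ISG15, was at 13.4, 11.1, 32.9 and 7.03 CPM in WT at S3 and at 271 and 87.8 CPM in KO. WT embryo 5 was again the highest of its group, and KO embryo 2 again exceeded KO embryo 9. *Usp18* rose by a log2 difference of 3.53 (SE 0.58), 11.5-fold, with an edgeR adjusted p of 0.0438. In Het it was at 21.6 and 36.6 CPM, overlapping with WT.

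*Herc6*, the main ISG15 ligase of the mouse, was at 6.68, 5.84, 7.66 and 5.10 CPM in WT at S3 and at 18.2 and 16.9 CPM in KO. The groups were well separated, at a low level in both. Its log2 difference was 1.53 (SE 0.19), 2.89-fold, with an edgeR adjusted p of 0.0189. Het libraries had 5.95 and 7.93 CPM.

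*Trim25*, a ligase for ubiquitin as well as ISG15 that takes part in RNA sensing, was at 27.3, 24.7, 32.5 and 25.2 CPM in WT at S3 and at 56.8 and 49.8 CPM in KO. Both KO libraries exceeded all WT libraries, of which embryo 5 was again the highest. The log2 difference was 1.02 (SE 0.15), 2.02-fold, with an edgeR adjusted p of 0.0351. Het libraries had 30.005 and 32.4 CPM, inside the WT range.

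*Uba7*, the activating enzyme, was at 388, 234, 350 and 410 CPM in WT at S3 and at 530 and 507 CPM in KO. The groups did not overlap, but the log2 difference of 0.64 (SE 0.22) had an edgeR adjusted p of 0.397. With sex as a covariate, the edgeR adjusted p was 0.0445 for a log2 difference of 0.67, in a fit that called 547 of 11804 genes against 66 without the covariate. Het libraries had 285 and 321 CPM.

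*Ube2l6*, the conjugating enzyme, was at 4305, 5161, 5479 and 5237 CPM in WT at S3 and at 5407 and 4353 CPM in KO. Both KO libraries lay inside the WT range, and of the Het libraries 1 lay above it (5724 CPM) and 1 inside (4911 CPM). The log2 difference was 0.01 (SE 0.16), with a 95% interval from -0.36 to 0.38 and an edgeR adjusted p of 0.997. A change of *Ube2l6* as large as that of *Trim25* lies outside this interval.

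**Figure D2:**
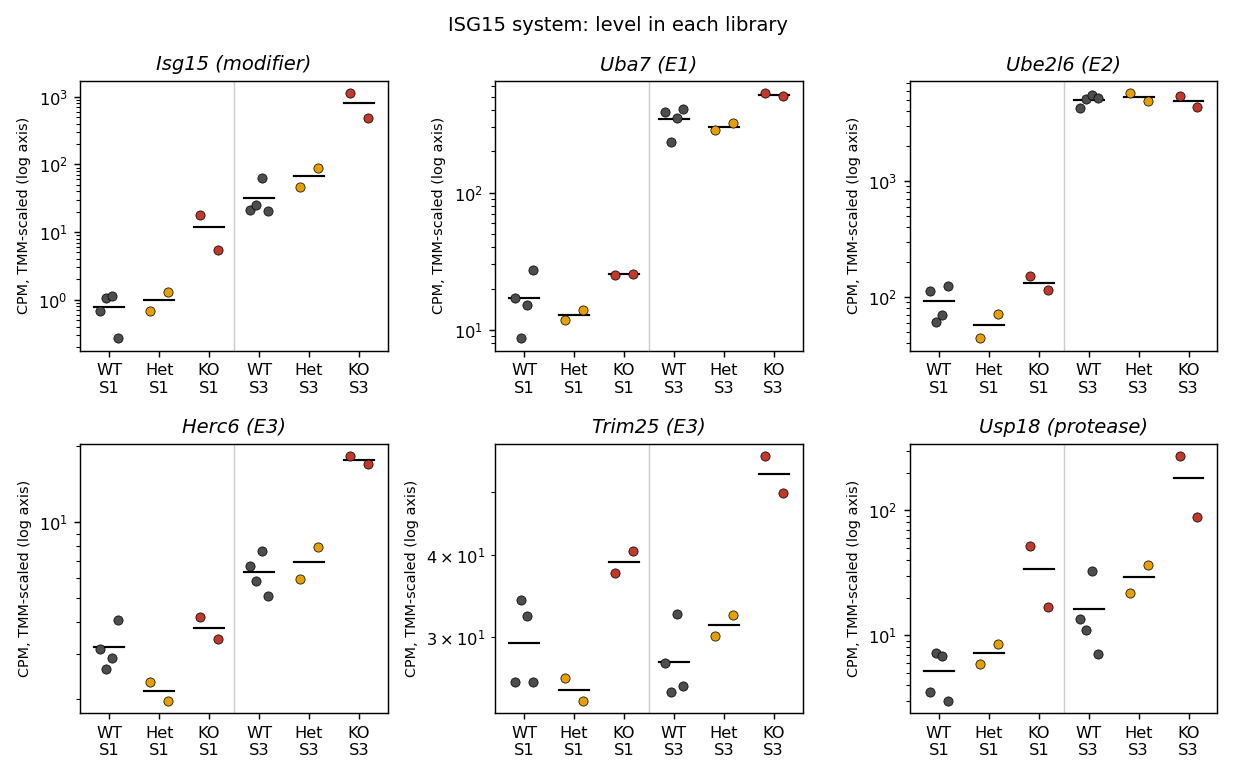
CPM of each gene in each library on a log axis, 1 panel per gene, with points for single embryos, black lines for group means and S1 groups left of the vertical line. *Isg15* and *Usp18* have both KO points above every WT and Het point at both stages, while *Ube2l6* at S3 lies between 4305 and 5724 CPM in every library.

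The calls at S3 depended on which embryos were in the fit. Of the 4 called genes, 1 was still called without WT embryo 0, 1 without WT embryo 1, 4 without WT embryo 5, none without WT embryo 8, 1 without KO embryo 2 and 2 without KO embryo 9. *Isg15* was called in each of these fits except that without WT embryo 8, where its log2 difference was 4.52 and its edgeR adjusted p 0.0554. The fits without a KO embryo have 1 KO library, which is assumed to vary like WT. Over these fits *Herc6* ranged from 1.44 to 1.61 and *Trim25* from 0.93 to 1.10. *Isg15* ranged from 3.98 without KO embryo 2 to 5.21 without WT embryo 5, and *Usp18* from 2.51 without KO embryo 2 to 4.12 without KO embryo 9. KO embryos 2 and 9 differed in sex, and in each sex KO exceeded WT for all genes but *Ube2l6*: for *Isg15*, 1126 against 24.95 and 62.9 CPM in females and 487 against 21.04 and 20.5 CPM in males.

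The KO embryos differed from each other in the modifier and its protease and little in the enzymes. At S3 embryo 2 exceeded embryo 9 by 2.31-fold in *Isg15* and by 3.09-fold in *Usp18*. At S1 the ratios were 3.29 for *Isg15* and 3.07 for *Usp18*. For *Uba7*, *Ube2l6*, *Herc6* and *Trim25* the same ratio was between 0.925 and 1.30 at both stages. The S3 library of KO embryo 9, the lower in *Isg15* and *Usp18*, was the highest of all S3 libraries in summed megakaryocyte (108 CPM, against 45.2 CPM in KO embryo 2), neutrophil (12.9 against 1.54 CPM) and early progenitor markers (8.39 against 2.34 CPM). The part of these markers in the difference between the embryos was not tested.

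Marker levels of several cell types differed between the KO and WT libraries. At S3 the erythroid sums above were lower in both KO libraries than in all WT libraries, with all 10 markers below 0 in log2 difference (median -0.24) and none called. Macrophage markers summed at S3 to between 50.9 and 107 CPM in WT and to 24.6 and 37.8 CPM in KO. Of 15 listed markers 13 were tested, and 3 were called lower (*Fcna*, *Lyz2* and *Marco*) and none higher, against 0.102% of all genes called lower. At S1 the macrophage sums were higher in KO, at 70.3 and 71.7 CPM against 32.2 to 59.1 CPM in WT, but 4 of the 13 tested were above 0 in log2 difference (median -0.83) and none was called. Hepatoblast markers at S3 summed to between 134 and 701 CPM in WT and to 57.9 and 177 CPM in KO, which overlapped, with all 10 below 0 (median -1.47), 4 at an unadjusted p under 0.05 and none called. Other lists had their medians above 0 at S3, with none called: 6 of 7 tested megakaryocyte (median 0.74), 2 of 2 early progenitor (1.33), 1 of 2 neutrophil (3.68) and 3 of 5 endothelial markers (0.06) were above 0. The part of these markers in the results for the 6 genes was not tested.

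The same comparison at S1 asked whether the difference was already present at the earlier stage. *Isg15* and *Usp18* were again far higher in both KO embryos, but no gene of the system passed. None of the 6 was called by edgeR among 14039 genes, of which 0% were called higher and 0.00712% lower. At an unadjusted p under 0.05 there were 2 of the 6, *Isg15* and *Usp18*, and 355 of all genes. DESeq2 called the same 2, and 45 of all genes. KO lay above WT without overlap for *Isg15*, *Usp18* and *Trim25*, as for 6.17% of all genes.

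*Isg15* at S1 was at 0.687, 1.06, 1.15 and 0.267 CPM in WT (22, 42, 45 and 13 reads), at 0.669 and 1.29 CPM in Het, and at 18.1 and 5.49 CPM in KO (737 and 260 reads). WT and Het rested on few reads, WT embryo 8 was lowest, and both KO libraries lay above all others. The log2 difference between KO and WT was 3.91 (SE 0.60), 15.05-fold, with an edgeR adjusted p of 0.610. It was 2.82 without KO embryo 2 and 4.52 without KO embryo 9.

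*Usp18* at S1 was at 3.53, 7.29, 6.80 and 2.98 CPM in WT, at 5.94 and 8.56 CPM in Het, and at 51.6 and 16.8 CPM in KO. WT embryos 0 and 8 were the lowest of the 8 libraries, as they were among the 4 WT libraries for *Isg15*. Its log2 difference between KO and WT was 2.74 (SE 0.49), with an edgeR adjusted p of 0.642, and was 1.72 without KO embryo 2 and 3.32 without KO embryo 9.

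The enzymes and ligases differed less at S1. *Trim25* was at 25.5, 34.1, 32.2 and 25.6 CPM in WT and at 37.5 and 40.6 CPM in KO, a log2 difference of 0.42 (SE 0.19). *Uba7* was at 17.1, 8.68, 15.1 and 27.4 CPM in WT and at 25.2 and 25.6 CPM in KO, which overlapped, with a log2 difference of 0.57 (SE 0.41).

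For *Ube2l6*, WT at S1 had 114, 60.9, 70.1 and 124 CPM, against 151 and 116 CPM in KO and a log2 difference of 0.53 (SE 0.33). *Herc6* was at 3.15, 2.62, 2.90 and 4.09 CPM in WT and at 4.196 and 3.44 CPM in KO, with a log2 difference of 0.26 (SE 0.29). With 1 embryo left out, *Herc6* ranged from 0.11 to 0.43, *Ube2l6* from 0.33 to 0.73 and *Uba7* from 0.34 to 0.92. For *Uba7*, *Ube2l6* and *Herc6*, embryo 8 was the highest WT library, the reverse of its place for *Isg15*.

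The S1 libraries of WT embryos 0 and 8 were therefore left out in a fit chosen after their values had been seen. Both are male and the other WT embryos are female, so that their values and sex cannot be told apart within WT. The fit sets KO embryos of both sexes against female WT alone. The log2 differences between KO and WT were then 3.42 for *Isg15*, 2.28 for *Usp18*, 1.11 for *Uba7*, 1.04 for *Ube2l6*, 0.48 for *Herc6* and 0.26 for *Trim25*. None of the 6 was called. In the comparison of KO with WT at S1 with all libraries, 1 of 10 tested erythroid (median -1.68), 1 of 10 hepatoblast (-0.90), 2 of 4 endothelial (-0.32), 6 of 7 megakaryocyte (0.28), 3 of 4 early progenitor (0.40) and 9 of 9 neutrophil markers (0.83) were above 0, with none called. The part of the globin and marker levels in the S1 values was not tested.

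Whether the difference between KO and WT itself changed from S1 to S3 was tested by an interaction term. No member passed in edgeR, with 0.00742% of 13485 genes called. At an unadjusted p under 0.05 there were 420 of all genes and 2 members, *Herc6* (1.28 log2 units more at S3, SE 0.36) and *Trim25* (0.59, SE 0.24). For *Isg15* the term was 0.76 (SE 0.87) and for *Usp18* 0.77 (SE 0.89), with intervals from -1.12 to 2.64 and from -1.15 to 2.699.

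Het embryos carry 1 deleted copy, and the comparison with WT uses the same WT libraries as that of KO. No member was called at either stage in edgeR, where no gene of 11746 at S3 or 13818 at S1 was called (0% of all genes). Unadjusted p under 0.05 was reached by 373 genes at S3 and 589 at S1. *Isg15* at S3 was the 1 member among them, with a log2 difference of 1.14 (SE 0.44) and an edgeR adjusted p of 0.901. *Usp18* at S3 had a log2 difference of 0.91 (SE 0.49), and the other 4 members between -0.14 and 0.24. *Isg15* was at 0.58 without Het embryo 4 and 1.68 without WT embryo 5, and *Usp18* at 0.46 and 1.52, none of them called. Of markers at S3, 0 of 10 tested hepatoblast (median -1.38, 6 at an unadjusted p under 0.05), 0 of 13 macrophage (-0.41), 0 of 7 megakaryocyte (-0.52), 0 of 3 endothelial (-2.45) and 7 of 10 erythroid markers (0.08) were above 0 in Het against WT. None was called and their part was not tested.

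At S1 the log2 differences between Het and WT ran from -0.68 for *Ube2l6* to 0.51 for *Usp18*. *Herc6*, at 2.32 and 1.95 CPM in Het, lay below all WT libraries, as did 9.3% of all genes, with a log2 difference of -0.59 (SE 0.30). *Uba7* had 11.8 and 13.9 CPM, *Ube2l6* 44.0 and 71.6 CPM and *Trim25* 25.9 and 23.9 CPM, all overlapping with WT. Of markers, 2 of 10 tested erythroid (median -2.24), 1 of 10 hepatoblast (-2.504), 1 of 4 endothelial (-2.71), 2 of 12 macrophage (-1.42), 0 of 7 megakaryocyte (-0.98), 2 of 4 early progenitor (0.14) and 7 of 9 neutrophil markers (0.97) were above 0 in Het against WT at S1. None was called, 7 erythroid and 7 hepatoblast markers had an unadjusted p under 0.05, and their part was not tested. WT embryos 0 and 8 are in this comparison: *Ube2l6* was at -0.56 without embryo 0 and -0.52 without embryo 8, and *Usp18* at 0.37 and 0.29. *Ube2l6* was at -0.38 without Het embryo 3 and -1.09 without Het embryo 4, and *Usp18* at 0.73 and 0.21.

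Against Het rather than WT, *Isg15* was again higher in KO at S3, by 3.55 log2 units (SE 0.45, edgeR adjusted p = 0.0477), the 1 member called among 11345 genes of which 0.141% were called higher. It was not called without Het embryo 3 (edgeR adjusted p = 0.136), without Het embryo 4 (0.0642) or with all 16 libraries in the fit (0.0763). *Usp18* (2.60, SE 0.50), *Herc6* (1.33, SE 0.22), *Uba7* (0.76, SE 0.13) and *Trim25* (0.76, SE 0.14) were above Het in both KO libraries without passing, and without KO embryo 2 the difference was 2.84 for *Isg15* and 1.59 for *Usp18*. Fits with 1 library in a group assume that it varies like the other group. Such separation of 2 against 2 libraries was found for 22.5% of all genes. *Ube2l6* overlapped, at -0.13 (SE 0.16). No marker was called in this comparison: 0 of 12 tested macrophage markers (median -1.12), 1 of 10 erythroid (-0.21), 4 of 8 hepatoblast (-0.16), 6 of 7 megakaryocyte (2.21), 2 of 3 neutrophil (5.19), 2 of 2 early progenitor (1.76) and 2 of 2 endothelial markers (0.99) were above 0 in log2 difference. Their part was not tested.

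At S1 all 6 genes were higher in both KO than in both Het libraries, as were 17.9% of all genes. None was called in edgeR, where 0.0217% of 13814 genes were called higher, and all 6 had an unadjusted p under 0.05, as did 922 of all genes. The log2 differences were 3.61 for *Isg15* (SE 0.56), 2.24 for *Usp18* (SE 0.44), 1.21 for *Ube2l6* (SE 0.24), 0.99 for *Uba7* (SE 0.19), 0.84 for *Herc6* (SE 0.28) and 0.66 for *Trim25* (SE 0.16). Without KO embryo 2 the difference was 2.54 for *Isg15* and 1.24 for *Usp18*, and without KO embryo 9 it was 4.24 and 2.84. DESeq2 called 3 of the 6, and 67 of all 13814 genes. No marker was called in this comparison, in which 8 of 10 tested erythroid (median 0.53), 8 of 10 hepatoblast (1.03), 8 of 10 macrophage (0.64), 7 of 7 megakaryocyte (0.69), 3 of 3 endothelial (1.80), 3 of 4 early progenitor (0.26) and 5 of 9 neutrophil markers (0.04) were above 0. An unadjusted p under 0.05 was reached by all 3 endothelial and 4 megakaryocyte markers, and the part of these lists was not tested.

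**Figure D3:**
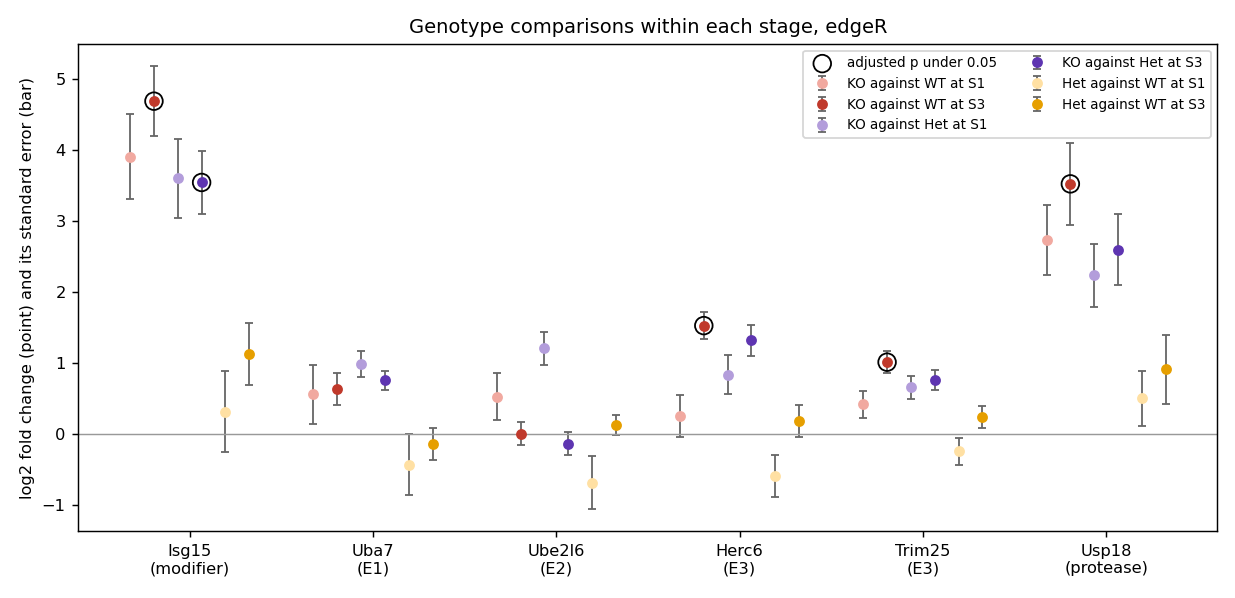
Log2 fold changes of the 6 genes in the genotype comparisons at S1 and S3, with points for the edgeR estimate, bars for its standard error and black rings for an adjusted p under 0.05. Rings appear on *Isg15*, *Herc6*, *Trim25* and *Usp18* for KO against WT at S3 and on *Isg15* for KO against Het at S3, and the *Ube2l6* estimate for KO against WT at S3 sits at 0.01.

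The stage comparison within WT asked how the system changes as erythroblasts mature. In TMM-scaled counts, modifier, E1 and E2 rose by over an order of magnitude, the protease and *Herc6* less, and *Trim25* did not pass. By edgeR, 5 of the 6 were called higher at S3 among 13514 genes, of which 30.6% were called higher and 35% lower. S3 lay above S1 without overlap for 4 of them, as for 27.6% of all genes. Markers of other cells changed between the stages too: in WT, 10 of 13 tested macrophage markers (median 1.91) and 3 of 10 hepatoblast markers (median 1.32) were called higher at S3, and 9 of 9 neutrophil markers were called lower (median -7.93). Summed macrophage markers were at 32.2 to 59.1 CPM at S1 and 50.9 to 107 CPM at S3, and neutrophil markers at 116 to 1377 CPM and 1.11 to 4.77 CPM. Their part in the stage values of the 6 genes was not tested.

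*Ube2l6* was higher at S3 by 5.84 log2 units (SE 0.30, edgeR adjusted p = 3.23e-07), or 57.1-fold. *Isg15* was higher by 5.42 (SE 0.54, edgeR adjusted p = 1.09e-05) and *Uba7* by 4.40 (SE 0.37, edgeR adjusted p = 3.78e-06). These 3 genes were higher at S3 in every embryo of every genotype, by between 3.90 and 7.02 log2 units within an embryo.

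*Usp18* was higher by 1.71 (SE 0.47, edgeR adjusted p = 0.00834), with WT embryo 8 at S3 (7.03 CPM) just under WT embryo 1 at S1 (7.29 CPM). *Herc6* was higher by 1.05 (SE 0.23, edgeR adjusted p = 0.00217). *Trim25* differed by -0.03 (SE 0.16, edgeR adjusted p = 0.866).

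The scaling of libraries bore on the smaller of these values. TMM, which assumes that most genes do not differ, gave S1 libraries factors of 1.29 to 1.51 and S3 libraries factors of 0.691 to 0.813; at S3 globin took 10.0% to 11.8% of all reads. With scaling by library size alone, chosen after these factors were seen, the median of all genes moved from -0.08 to -1.10 in WT. *Ube2l6* was then higher by 4.79, *Isg15* by 4.41 and *Uba7* by 3.35, all still called.

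*Usp18* (0.70, edgeR adjusted p = 0.178) and *Herc6* (0.01, edgeR adjusted p = 0.960) were not called under library size scaling, and *Trim25* was called lower, at -1.05 (edgeR adjusted p = 0.000163). Relative to the median of all genes, *Trim25* thus changed little under both scalings and *Herc6* was above it by about 1 log2 unit. On the TPM scale the S3 to S1 ratio of WT means was -0.41 log2 units for *Herc6* and -1.46 for *Trim25*. On that scale the WT mean of *Uba7* went from 10.9 TPM at S1 to 82.2 TPM at S3. That of *Usp18* went from 7.32 to 9.02 TPM, with libraries of the stages overlapping.

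Under TMM scaling, all 6 were called higher at S3 in KO and in Het, against 24.7% of 13446 genes and 36.3% of 13085 genes called higher. *Isg15* was higher by 6.18 (SE 0.75) in KO and 6.28 (SE 0.27) in Het, *Ube2l6* by 5.28 (SE 0.25) and 6.64 (SE 0.22), and *Uba7* by 4.44 (SE 0.17) and 4.68 (SE 0.14). *Usp18* was higher by 2.48 (SE 0.69) in KO and 2.14 (SE 0.21) in Het, and *Herc6* by 2.29 (SE 0.24) and 1.81 (SE 0.25). Under library size scaling *Usp18* in KO was at 1.59 and not called (edgeR adjusted p = 0.0684). *Trim25* was called higher under TMM, by 0.53 (SE 0.16) in KO and 0.45 (SE 0.14) in Het, but was at -0.37 and -0.53 under library size scaling, where the median of all genes was -0.99 and -1.03. The value in Het was then called lower (edgeR adjusted p = 0.00516), and that in KO was not called (0.111). Markers of other cells changed under TMM too. In Het, 9 of 12 tested macrophage markers were called higher and 2 lower. There 6 of 9 hepatoblast markers were called higher and 7 of 7 neutrophil markers lower. In KO, 1 of 12 macrophage markers was called higher and 3 lower, and 5 of 9 neutrophil markers lower. No hepatoblast marker was called in KO. Of all genes, 5181 in Het and 3814 in KO were called lower. The part of these markers was not tested.

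With 1 embryo left out, *Trim25* was not called in either genotype (edgeR adjusted p = 0.295 without KO embryo 2, 0.0654 without KO embryo 9, 0.0908 without Het embryo 3 and 0.361 without Het embryo 4). *Usp18* was not called in Het without embryo 3 (edgeR adjusted p = 0.103) or embryo 4 (0.149). These fits took in all remaining libraries, so that a lone library was assumed to vary like the other groups. Over all 9 alternatives, those above included, *Trim25* lost the call in 3 and changed sign in 1, in KO and in Het alike.

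**Figure D4:**
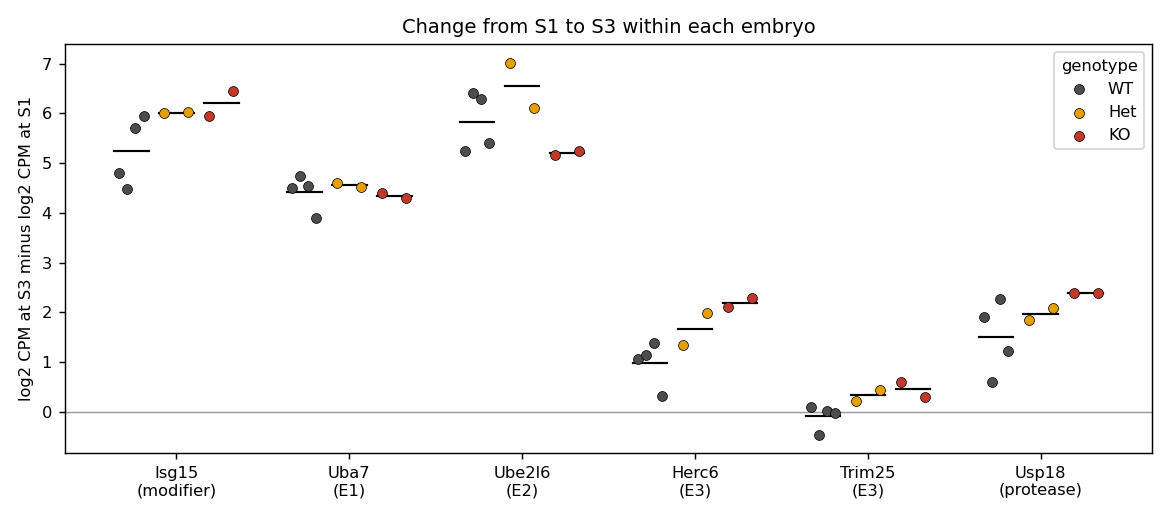
Change from S1 to S3 within each embryo, as log2 CPM at S3 minus log2 CPM at S1 under TMM scaling, with 1 point per embryo and black lines for genotype means. *Isg15*, *Uba7* and *Ube2l6* lie between 3.90 and 7.02 in all 8 embryos, *Herc6* in KO (2.10 and 2.28) lies above all WT embryos (0.31 to 1.38), and *Trim25* lies between -0.47 and 0.10 in WT and between 0.21 and 0.60 in Het and KO.

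The distance between members was described by the root mean square difference, over the 16 libraries, of log2 CPM centred on the WT mean of the stage. *Uba7*, *Ube2l6*, *Herc6* and *Trim25* lay between 0.32 log2 units (*Herc6* and *Trim25*) and 0.62 (*Ube2l6* and *Herc6*) from each other. *Isg15* and *Usp18* were 0.64 apart, and each was between 1.36 (*Usp18* and *Herc6*) and 2.20 (*Isg15* and *Ube2l6*) from the enzymes and ligases. All points share libraries and their scaling. The distance depends on the size of the KO difference, so genes that differ little lie close whatever their pattern. These distances are therefore no result separate from the fold changes above.

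Among 11333 other genes the 5 with profiles nearest to *Isg15* were *Tgtp2* (0.54), *Usp18* (0.64), *Oas1a* (0.68), *Rsad2* (0.76) and *Rtp4* (0.87). *Herc6* ranked 138, *Trim25* 164, *Uba7* 469 and *Ube2l6* 2882 by the same measure. With a prior count of 0.5 in place of 2, *Dhx58* replaced *Rsad2* among the first 5. All 5 are known as interferon-induced genes: *Tgtp2* encodes a GTPase of cell-autonomous defence, *Oas1a* an oligoadenylate synthetase, *Rsad2* viperin and *Rtp4* a receptor transporter protein. *Tgtp2* has a near-identical neighbour, so its counts are uncertain.

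The measure of likeness uses the KO difference, so that of the neighbours is no separate result, and centring removes the change with stage. In KO against WT at S3, *Rtp4* was at 3.36 (SE 0.74) and did not pass (edgeR adjusted p = 0.128), while the other 4 were called. From S1 to S3 in WT, *Rsad2* was higher by 6.58 log2 units (SE 0.72, edgeR adjusted p = 2.13e-05), beside 5.42 for *Isg15* and 1.71 for *Usp18*. *Tgtp2* was lower, at -2.25 (SE 0.69, edgeR adjusted p = 0.0147), and *Oas1a* (-1.29, SE 0.73) and *Rtp4* (-0.51, SE 0.76) did not pass. In WT, *Rsad2* rested on 0 to 11 reads a library at S1 and *Tgtp2* on 1 to 17 at S3. *Oas1a* and *Rtp4* each had 3 reads in WT embryo 8 at S3. These few reads limit the precision of the fold changes and of the distances to *Isg15*.

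**Figure D5:**
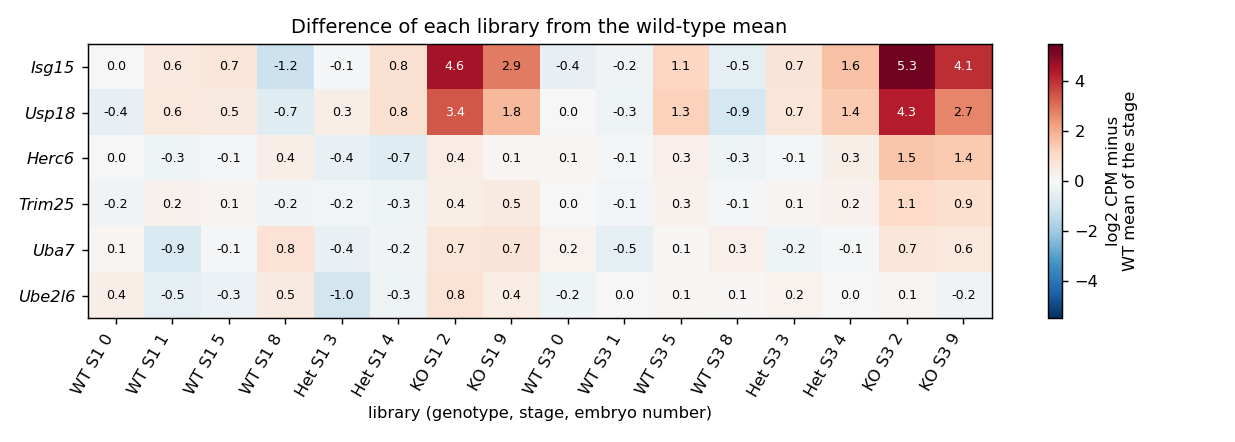
Log2 CPM of each gene in each library minus the WT mean of the same stage, printed in each cell and coloured on a common scale, with libraries grouped by stage and genotype. *Isg15* and *Usp18* are the rows with values of at least 1.80 in all 4 KO libraries, and the row of *Ube2l6* stays between -0.22 and 0.19 in the S3 libraries.

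The wider ubiquitin-like machinery was compared between KO and WT at S3 as well. Of 38 genes of the ubiquitin, NEDD8, SUMO, UFM1, URM1 and autophagy conjugation pathways, all were tested and none was called by edgeR in either direction, against 0.559% of all genes, so that the count is near the background. Their median log2 difference was 0.06. The lowest p values belonged to *Sumo3* (0.41, SE 0.18), *Senp8*, a NEDD8 protease (-0.49, SE 0.24), and *Ubb*, a polyubiquitin gene (-0.25, SE 0.15).

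The closest relatives of the E1 and E2, *Uba1* and *Ube2l3*, were looked at after their values were seen. *Ube2l3*, an E2 of the ubiquitin system, was at 85.9 ± 6.59 TPM in WT and 96.7 ± 5.55 TPM in KO at S3, where *Ube2l6* was at 3979 and 4305 TPM. At S1 *Ube2l3* was at 170 ± 14.3 TPM in WT, beside 193 ± 87.2 TPM for *Ube2l6*. *Uba1*, the main E1 for ubiquitin, was at 150 ± 33.3 TPM in WT and 178 ± 27.5 TPM in KO at S3, above *Uba7* in both.

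Of 12 genes for partners of ISG15 and USP18, 10 were tested at S3 and none was called, against the same 0.559% of all genes, so that the count is near the background; they had a median log2 difference of 0.11. The nearest was *Stat2*, the adaptor through which USP18 reaches the receptor, at 0.97 (SE 0.31, edgeR adjusted p = 0.334). *Skp2* (-0.30, SE 0.17) and *Usp14* (-0.17, SE 0.13) followed.

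Among genes for known targets of ISG15 conjugation, *Ifih1*, which encodes the RNA sensor MDA5, rose at S3 by 1.603 log2 units (SE 0.19, edgeR adjusted p = 0.0153), from 10.4 to 14.9 CPM in WT to 43.1 and 32.8 CPM in KO. *Eif2ak2*, which encodes the kinase PKR, did not pass, at 1.54 (SE 0.29, edgeR adjusted p = 0.0745). *Ifih1* and *Eif2ak2* are themselves interferon-induced genes.

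Among genes of interferon signalling, *Irf9* (1.39, SE 0.22, edgeR adjusted p = 0.0392) and *Irf7* (2.81, SE 0.45, edgeR adjusted p = 0.0419) rose at S3. These genes and *Ifih1* are named for the smallest p values of their lists and do not describe the lists as a whole. *Irf9* encodes part of the complex that binds the response element printed above for *Isg15*, and *Irf7* a factor that drives interferon genes. *Irf7* was at 49.9, 30.4, 94.5 and 33.4 CPM in WT and at 486 and 217 CPM in KO, with WT embryo 5 and KO embryo 2 the highest of their groups, as for *Isg15*.

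At S1 none of these lists held a called gene, in a comparison that called 1 gene of 14039 (0.00712%). *Irf7* was at 1.86 (SE 0.44), *Ifih1* at 1.24 (SE 0.29) and *Irf9* at 0.76 (SE 0.19), in the same direction as at S3.

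The interferon ligand genes listed gave almost no reads, and ligands outside the list were not looked up. Of 11 listed ligands, 10 had no read in any of the 16 libraries, and none reached the level for testing. *Ifnk* had at most 5 reads, in 7 libraries, and none at S3. A count of 0 allows up to 3 reads in a library of this depth, for counting error only, and interferon made by cells outside the sort was not measured.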

How the data were processed

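RNA of sorted S1 and S3 erythroblasts was amplified by a SMARTer method, enriched for poly(A) and sequenced. The authors mapped reads to mm39 with STAR 2.7.9 and deposited raw counts per gene made with featureCounts 1.6.4, with Ensembl annotation; strand and multi-mapping settings are not given in the sources used here. Of 55416 gene identifiers, 54749 were paired with a symbol. The 16 library columns were matched to samples by their labels, and 4 further library columns were not used.

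Counts were tested in R 4.3.3 with edgeR 4.0.16 (TMM, quasi-likelihood, two-sided) on the libraries of each comparison, for genes with a mean normalised count above 10, with Benjamini-Hochberg adjustment over all genes tested and a threshold of 0.05. CPM (TMM over 16 libraries) and TPM (from the deposited exonic lengths) describe levels. Alternatives were DESeq2 1.42.0, RLE, other filters, sex as a covariate, all libraries in 1 fit, library size scaling, embryo as a block and leaving out each embryo. On simulated counts with 195 genes changed by 2 log2 units, the S3 test of KO against WT recovered 84.6%; at S1 it recovered 58.9% of 197.

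S1 and S3 libraries of an embryo come from the same animal and are paired by its number; after subtracting each group's mean, the S1 and S3 values of 1 embryo correlated over 12735 genes with r of 0.02 to 0.34 in WT, 0.42 in KO and 0.05 in Het. No source says whether embryos were littermates. Genes named are the 6 members, the 5 genes nearest to *Isg15*, the 3 with the smallest p in each further list and *Nprl3*; others are said to be chosen later. A gene of the target and signalling lists is not reported here, so neither list is given as a count. Members, lists and tests were chosen with earlier results of these data known.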

Additional observations from a re-analysis of the deposited data

Results flagged for a closer look

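In WT at S3, *Isg15* stood at 62.9 CPM in embryo 5, against 20.5 to 24.95 CPM in the other 3 embryos. The gap to the next library took up 0.896 of the range of the group, above the 95% limit of Dixon's test for 4 values. Of 12 groups of 4 libraries tested for the 6 genes, this was the 1 past the limit, and chance flags about 1 in 20. *Usp18* (32.9 CPM), *Herc6* (7.66 CPM), *Trim25* (32.5 CPM) and *Ube2l6* (5479 CPM) were also highest in this library among WT at S3. Without embryo 5, 4 members were called in KO against WT at S3. Its cause was not tested.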

How the results depend on the processing

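The number of members called changed with the settings and the embryos left out. For KO against WT at S3 it was 4, and 5 with sex as a covariate, with edgeR or DESeq2, and ranged from 0 to 4 with 1 embryo left out. For KO against WT at S1 it was 0, and 2 with no filter, with DESeq2, with sex as a covariate and with DESeq2 and sex. For Het against WT at S3 it was 0, and 1 with no filter, 2 with sex as a covariate and 1 with DESeq2 and sex; at S1 it was 0, and 2 with DESeq2 and sex. For KO against Het at S3 it was 1, and 5 with no filter, 4 with DESeq2, 0 with all 16 libraries in the fit, 5 with sex as a covariate, 4 with DESeq2 and sex, 2 with library size scaling and 0 to 5 with 1 embryo left out. For KO against Het at S1 it was 0, and 4 with no filter, 3 with DESeq2, 5 with sex as a covariate, 4 with DESeq2 and sex and 0 to 5 with 1 embryo left out. The cause was not tested. Settings that called more members also called more genes. With sex as a covariate, 2724 of 11345 genes were called for KO against Het at S3 (18 without it) and 1436 of 13814 at S1 (6 without it). For Het against WT at S3, 2124 of 11746 were called (0 without it). KO embryo 2 was the only female in KO against Het, so the sex term there takes up its library and leaves 1 KO library. That fit and the fit without KO embryo 2 are therefore not separate alternatives. *Isg15* was at 2.84 in both at S3 and at 2.55 and 2.54 at S1. The counts for the stage comparisons and the interaction stayed within 1.5 times of their values when both directions are counted; under library size scaling in WT, the 4 called were 3 higher and *Trim25* lower. The embryo as a replicate block changed no call in the stage comparisons or the interaction and turned the *Uba7* interaction, which did not pass, from 0.08 to -0.0227.

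Of 738 alternatives for single members, 625 kept direction and side of the threshold, 29 lost the call, 66 gained it and 18 changed sign. *Ube2l6* in KO against WT at S3 was 0.01 and became -0.0037 with RLE, -0.0015 with no filter, -0.0103 with filterByExpr, -0.0037 with DESeq2, -0.00498 with all libraries, -0.0086 with DESeq2 and sex, and between -0.15 and 0.15 with 1 embryo left out. With 1 embryo left out, *Herc6* in Het against WT at S3 ranged from -0.052 to 0.41, *Isg15* in Het against WT at S1 from -0.23 to 0.72, *Ube2l6* in KO against Het at S3 from -0.28 to 0.0015, *Trim25* in the WT stage comparison from -0.091 to 0.10 and the *Uba7* interaction from -0.19 to 0.15. None of these values passed. *Trim25* turned under library size scaling to -0.37 in KO and to -0.53 in Het, where it was called lower, between stages, and *Herc6* in WT to -0.41 on the TPM scale.

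With 2 KO and 2 Het embryos, the spread within each group rests on 1 pair, and both Het embryos were male. *Isg15* at S1 in WT rested on 13 to 45 reads a library, which limits the precision of its fold change.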
